A study of Saccharomyces cerevisiae with 6 samples.

Results

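Complex III of the yeast respiratory chain, the cytochrome bc1 complex, was followed through the mRNAs of its 9 nuclear-encoded subunits: *CYT1*, *RIP1*, *COR1*, *QCR2*, *QCR6*, *QCR7*, *QCR8*, *QCR9* and *QCR10*. The genes were taken by name from the deposited table, and all 9 are among its 6687 features, with reads in every library. They lie on 9 different chromosomes, and no member overlaps another feature of the table.

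The complex sits in the inner mitochondrial membrane, takes electrons from ubiquinol, passes them to cytochrome c, and moves protons across the membrane as it does so. Electrons pass through cytochrome b, the Rieske iron-sulfur protein and cytochrome c1, and the other subunits hold no redox group. In budding yeast, glucose represses the genes of the respiratory chain, and the Hap2/3/4/5 complex, which binds CCAAT boxes, activates many of them when glucose is scarce or absent.

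The data are mRNA-Seq of *S. cerevisiae* BY4741, a haploid of mating type a that needs histidine, leucine, methionine and uracil, carrying either empty pCM190 (control cells) or pCM190 with *PPZ1* (PPZ1 cells). *PPZ1* encodes a Ser/Thr protein phosphatase, and the plasmid is multicopy, is selected by growth without uracil, and drives the gene from the tetO7 promoter, which doxycycline represses. Cells of both kinds spent the night with 100 µg/ml doxycycline, were washed free of it, and grew for 3.5 h from an OD600 of 0.2 to 0.55. They were then filtered and held for 1 h in fresh medium of 1 of 3 kinds (glucose at 2%, glucose at 0.25%, galactose at 2%), so all 6 groups share the doxycycline treatment, its removal and the filtration.

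Each of the 6 conditions has 1 library and no repeat, so no difference between single libraries was tested. The labels do not say whether the 3 media of a plasmid came from a shared starting culture. The libraries hold between 1845237 reads in features (PPZ1 cells in 0.25% glucose) and 6784469 (control cells in 0.25% glucose). Errors given as ± are standard errors of read counting, and intervals are exact 95% Poisson intervals. Neither covers variation between cultures or libraries, and duplicate reads had been removed without molecular identifiers. Levels are in CPM, that is the deposited value divided by the summed values of the deepest library and multiplied by 1000000, and log2 changes were taken after adding 1 CPM. *PPZ1* stood at 75.0 to 94.3 CPM in control cells, and at 12538, 17798 and 2705 CPM in PPZ1 cells in 2% glucose, 0.25% glucose and galactose. Of the BY4741 markers, *MET17* had no read in any library, *LEU2* stood at 0.527 CPM or less, *HIS3*, only partly deleted in this strain, at 22.9 to 68.0 CPM, and the a-cell receptor gene *STE2* at 145 to 592 CPM.

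The promoters are shown first because 7 of the 9 members share a CCAAT box in the sense direction. The 300 bases before each start codon were read from the R64 genome on both strands. The motifs looked for were CCAAT, the core bound by the Hap complex; CGGNNNTANCGG, a site of the heme-responsive activator Hap1; CGTNNNNNNTGAT, a form of the site of the general factor Abf1; and CACGTG, the site of Cbf1. CCAAT stands in the sense direction in 7 of 9 members, against 23.0% of 6001 promoters of the same length, and in either direction in 41.8% of them. CACGTG is found in 4 of 9 (3.57% of all promoters), the Abf1 form in 3 of 9 (8.38%) and the Hap1 form in *QCR6* alone (0.133%). A stretch of 100 bases from each of the 7 promoters follows, 5′ to 3′ along the gene, with the fixed letters of these motifs in capitals; N positions stay in lower case, and Abf1 forms lie on the opposite strand. The stretches are chrV:107000-107099 (plus strand) for *RIP1*, chrXVI:919121-919220 (plus) for *QCR2*, chrVI:224930-225029 (minus) for *QCR6*, chrIV:1496709-1496808 (minus) for *QCR7*, chrX:106174-106273 (plus) for *QCR8*, chrVII:859637-859736 (minus) for *QCR9* and chrVIII:107566-107665 (plus) for *QCR10*, in R64 coordinates.
RIP1: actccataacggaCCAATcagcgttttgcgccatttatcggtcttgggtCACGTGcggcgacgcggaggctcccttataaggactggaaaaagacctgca
QCR2: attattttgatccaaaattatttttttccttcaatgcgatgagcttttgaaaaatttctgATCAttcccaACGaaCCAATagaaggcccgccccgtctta
QCR6: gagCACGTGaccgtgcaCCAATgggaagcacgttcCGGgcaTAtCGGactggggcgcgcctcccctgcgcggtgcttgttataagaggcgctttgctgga
QCR7: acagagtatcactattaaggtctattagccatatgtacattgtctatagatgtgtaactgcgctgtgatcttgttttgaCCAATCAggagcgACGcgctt
QCR8: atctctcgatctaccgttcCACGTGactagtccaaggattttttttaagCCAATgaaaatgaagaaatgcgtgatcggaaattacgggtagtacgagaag
QCR9: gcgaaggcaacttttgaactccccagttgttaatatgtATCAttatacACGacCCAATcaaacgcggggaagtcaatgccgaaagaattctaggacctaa
QCR10: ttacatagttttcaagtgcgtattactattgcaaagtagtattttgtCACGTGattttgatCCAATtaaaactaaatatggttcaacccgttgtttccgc

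The sense CCAAT of these stretches begins between 181 bases (*QCR7*) and 247 bases (*RIP1*) before the start codon. Each of the 7 genes has either CACGTG or the Abf1 form beside it, and none has both: CACGTG in *RIP1*, *QCR6*, *QCR8* and *QCR10*, the Abf1 form in *QCR2*, *QCR7* and *QCR9*. In *QCR7* the Abf1 form shares bases with the CCAAT box. *QCR6* has a second Hap1 form 290 bases before its start codon and *QCR8* a second CCAAT at 292, both outside the stretches shown. The promoters of *CYT1* and *COR1* hold none of the 4 motifs in this window. These are matches of letters, not measured binding.

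A pair of members, *QCR9* and *QCR10*, carry an intron, and their sequences are shown because the authors' features run through it. The R64 intervals printed are chrVII:859249-859476 (minus strand) for *QCR9* and chrVIII:107826-107906 (plus strand) for *QCR10*. Capitals mark coding bases: the whole first exon, of 3 bases in *QCR9* and 6 in *QCR10*, and the first 12 bases of the second. Each intron holds tactaac, the yeast branch point sequence, once.
QCR9: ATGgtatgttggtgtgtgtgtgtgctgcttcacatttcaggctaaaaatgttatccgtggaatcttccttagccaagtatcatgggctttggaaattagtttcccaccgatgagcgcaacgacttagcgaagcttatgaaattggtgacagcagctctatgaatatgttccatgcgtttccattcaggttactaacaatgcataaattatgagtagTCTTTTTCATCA
QCR10: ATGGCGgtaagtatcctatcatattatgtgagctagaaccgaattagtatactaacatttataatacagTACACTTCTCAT

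The intron of *QCR9* is 213 bases long, so its 414-base coding span codes in only 201 bases. For *QCR10* the numbers are 63, 297 and 234. Levels per kb below use the length of the authors' feature, the coding span plus 50 bp on each side, and levels on the spliced length are given where they change the order.

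Galactose gave the highest level of every member in both kinds of cells. The redox subunits come first: *CYT1* encodes cytochrome c1, and *RIP1* the Rieske iron-sulfur protein. In 2% glucose, 0.25% glucose and galactose, in this order, *CYT1* stood at 95.8, 177 and 444 CPM in control cells and at 106, 124 and 472 CPM in PPZ1 cells. *RIP1* stood at 71.4, 117 and 532 CPM in control cells, and at 86.8, 88.0 and 527 CPM in PPZ1 cells. For both genes the galactose libraries lie far above all 4 glucose libraries, and in control cells 0.25% glucose lies above 2% glucose by a smaller step.

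*COR1* and *QCR2* encode the large core proteins on the matrix side, relatives of the mitochondrial processing peptidase. *COR1* stood at 226, 380 and 1291 CPM in control cells (same order of media) and at 225, 252 and 1215 CPM in PPZ1 cells. *QCR2* stood at 174, 308 and 929 CPM in control cells and at 173, 163 and 908 CPM in PPZ1 cells. The levels of the 2 strains lie close together in 2% glucose and in galactose, and in 0.25% glucose the PPZ1 library is the lower for each.

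The small subunits have no redox group. *QCR6* encodes the acidic subunit, called the hinge protein in mammals, next to cytochrome c1; it stood at 155, 215 and 1037 CPM in control cells and at 177, 435 and 1020 CPM in PPZ1 cells. *QCR7* and *QCR8* encode subunits that join cytochrome b early in assembly. *QCR7* stood at 183, 228 and 1057 CPM in control cells and at 176, 347 and 808 CPM in PPZ1 cells. *QCR8* stood at 131, 150 and 841 CPM in control cells and at 110, 192 and 713 CPM in PPZ1 cells. In 0.25% glucose these 3 genes show the opposite order of strains to *COR1* and *QCR2*, with PPZ1 cells higher. For *QCR8* the log2 change of 0.35 was also the running median of all genes ranked by length (0.35). With that median subtracted, 0.001 was left for *QCR8*, 0.74 for *QCR6* and 0.30 for *QCR7*.

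*QCR9* and *QCR10* encode the smallest subunits, which lie beside the Rieske protein and cytochrome c1; Qcr10 is not needed for respiratory growth. *QCR9* stood at 63.4, 88.1 and 417 CPM in control cells and at 62.5, 54.3 and 340 CPM in PPZ1 cells. *QCR10* stood at 58.1, 78.4 and 438 CPM in control cells and at 60.5, 72.7 and 339 CPM in PPZ1 cells. In 0.25% glucose *QCR9* was lower in PPZ1 cells than in control cells under every scaling tried; *QCR10* lay within its counting error, and its sign changes with the scaling. Summed over the 9 genes, the members took 0.117%, 0.174% and 0.705% of the reads of control cells and 0.119%, 0.178% and 0.647% of those of PPZ1 cells.

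**Figure D1:**
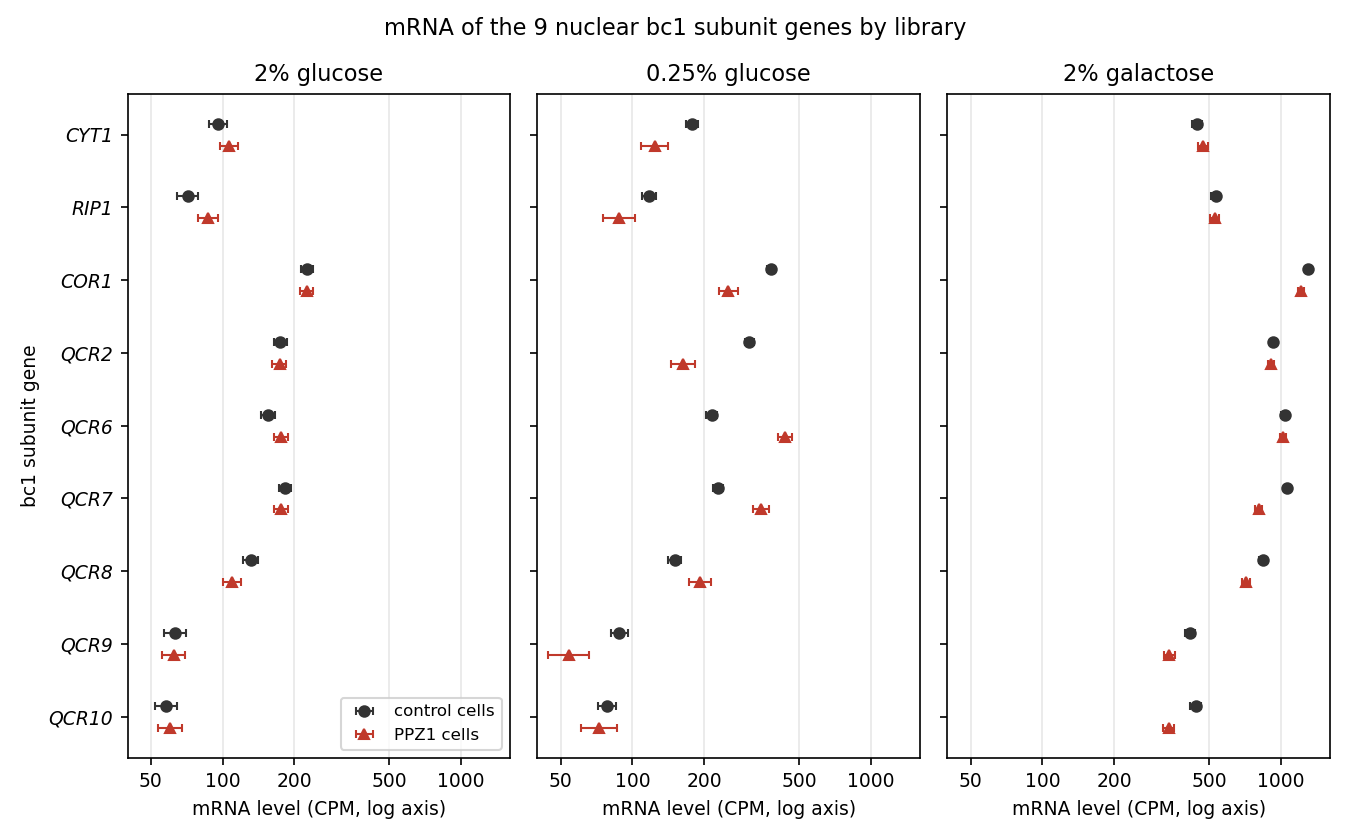
mRNA level of each bc1 subunit gene in CPM on a log axis, 1 panel per medium, with circles for control cells and triangles for PPZ1 cells (1 library each) and bars for the exact 95% Poisson interval. The strains part most in 0.25% glucose, where *QCR6* stands at 215 CPM in control cells and 435 CPM in PPZ1 cells, and *QCR2* at 308 and 163 CPM.

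Cytochrome b, the remaining redox subunit, is encoded by the mitochondrial gene *COB*. It is listed at 0 in all 6 libraries, as are all 28 mitochondrial features of the table, and its mRNA is not analysed here.

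Per kb of feature, averaged over the 6 libraries, the order of levels was *QCR7* (964 CPM per kb), *QCR6* (931), *QCR8* (925), *QCR10* (440), *COR1* (406), *QCR2* (367), *QCR9* (332), *RIP1* (317) and *CYT1* (230). The leading 3 do not hold a fixed order: each of them was the highest of the complex in at least 1 library. They were the top 3 in every library, and *CYT1*, *RIP1* or *QCR9* was the lowest. On the spliced length *QCR9* moves up to the fourth place, at 567 CPM per kb, and *QCR10* to the fifth, at 522. The places between *QCR10* and *CYT1* also change from library to library.

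The ratio of the highest to the lowest member per kb was 4.06, 3.01 and 5.07 in control cells, in the order of media used above. In PPZ1 cells it was 3.53, 7.58 and 4.09. The widest spread is thus that of PPZ1 cells in 0.25% glucose, where *QCR6* was the highest and *QCR9* the lowest; on spliced lengths the ratio there is 6.80, with *RIP1* the lowest, and the other 5 ratios stay as given. The ratio of *QCR6* to *QCR9* per kb lay between 2.30 and 2.83 in the other 5 libraries and was 7.58 in that one. On spliced lengths it lay between 1.35 and 1.66 and was 4.44 in that one. As a share of the 9 genes' summed CPM per kb of feature, *QCR6* took 16.2%, 16.0% and 17.4% with the empty plasmid (same order of media) and 18.4%, 28.1% and 19.4% with *PPZ1*. *QCR2* took 10.4% in control cells in 0.25% glucose and 4.75% in PPZ1 cells. These ratios and shares keep a trend with gene length. For PPZ1 against control cells in 0.25% glucose, the running median of all genes ranked by length was 0.28 at *QCR6* and -0.13 at *QCR2*, as log2 changes.

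**Figure D2:**
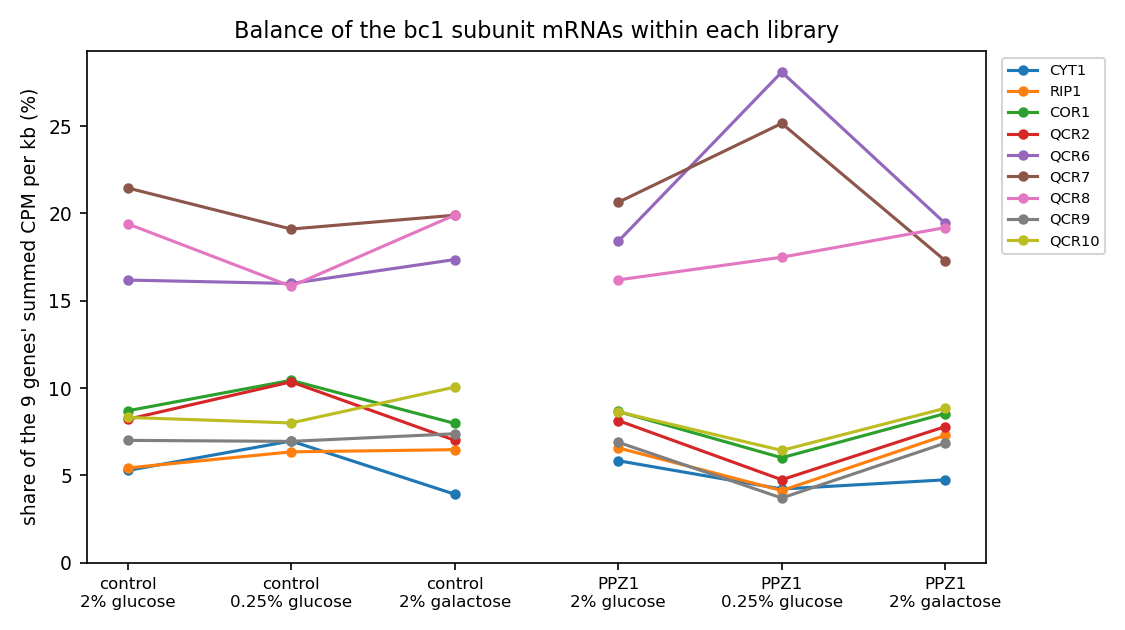
Share of each gene in the summed CPM per kb of the 9 bc1 subunit genes, in percent, for the 6 libraries, with lines joining the media of the same plasmid. *QCR6* leaves its range of 16.0% to 19.4% in 1 library, PPZ1 cells in 0.25% glucose, where it reaches 28.1%. The trend with gene length is not removed.

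Galactose against 2% glucose asks how far the complex is raised on a sugar that represses respiration less. All 9 members were at least 2-fold higher in galactose in control cells, with log2 changes from 2.20 ± 0.07 (*CYT1*) to 2.89 ± 0.09 (*QCR10*) and a median of 2.67. Of 5403 genes compared, 23.0% were at least 2-fold higher, and the median of all genes was 0.06 (18.4% higher against 26.1% lower with upper-quartile scaling, 23.0% against 19.7% here). In PPZ1 cells 9 of 9 were also at least 2-fold higher, from 2.14 ± 0.07 (*CYT1*) to 2.69 ± 0.07 (*QCR8*), with a median of 2.43. There the background was 19.8% of 5382 genes and the median of all genes -0.08. *CYT1* had the smallest change in both strains, with *QCR7* close to it in PPZ1 cells (2.19 ± 0.05). *COR1*, like *CYT1* without a match to the 4 motifs, stood at 2.51 and 2.43. A link between motifs and changes was not tested.

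Against 0.25% glucose the same galactose libraries were again at least 2-fold higher for 9 of 9 members in each strain. In control cells the log2 changes ran from 1.32 ± 0.05 (*CYT1*) to 2.48 ± 0.05 (*QCR8*), with 19.2% of all genes past 2-fold. In PPZ1 cells they ran from 1.22 ± 0.06 (*QCR7*) to 2.62 ± 0.14 (*QCR9*), with 23.6% of all genes past 2-fold. With upper-quartile scaling the latter count was 7 of 9, since *QCR6* and *QCR7* came out below the limit. The smallest steps were thus those of *CYT1* and *QCR2* (1.59) in control cells, and of *QCR7* and *QCR6* (1.23) in PPZ1 cells.

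The carbon source can be tested if both plasmids are taken to respond alike, because a model with plasmid and medium as additive terms leaves 2 residual degrees of freedom. This fit, edgeR's quasi-likelihood test on the recovered reads of 5382 genes with Benjamini-Hochberg adjustment, was added after the data were seen. By it all 9 members rose in galactose against 2% glucose, by 2.20 (*CYT1*) to 2.77 (*RIP1*) on the log2 scale, with edgeR adjusted p from 5.72e-06 to 7.12e-05. Against 0.25% glucose all 9 rose as well, by 1.66 (*CYT1*) to 2.47 (*QCR9*), with edgeR adjusted p from 1.55e-05 to 0.000601. Over all genes the fit called 32.9% higher in galactose against 2% glucose and 32.7% against 0.25% glucose. The members' changes in PPZ1 cells minus those in control cells ran from -0.43 (*QCR10*) to 0.02 (*QCR8*) against 2% glucose. Against 0.25% glucose they ran from -1.04 (*QCR6*) to 0.88 (*QCR2*), so a like response is a loose assumption there. The plasmids stand in for replicates, and the p-values do not measure variation between cultures of the same condition.

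**Figure D3:**
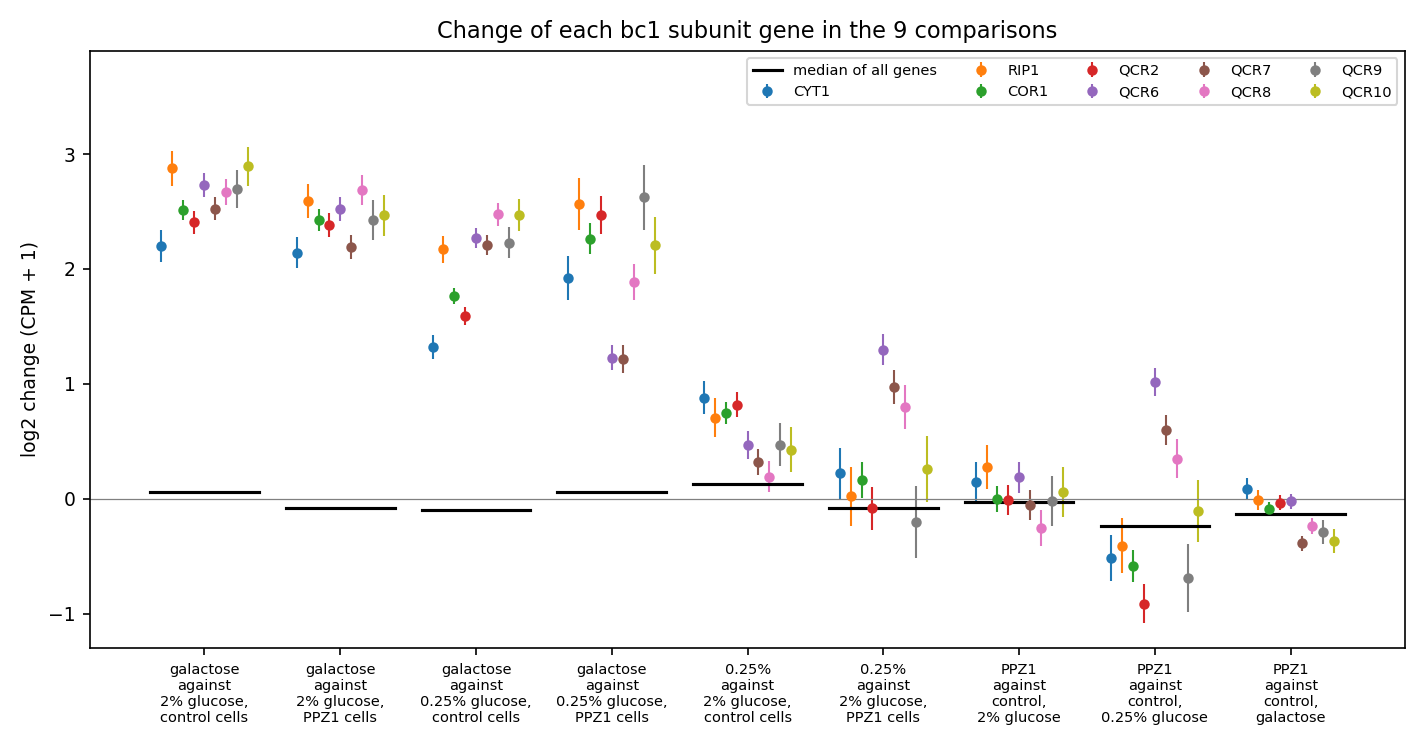
log2 change (CPM + 1) of each bc1 subunit gene in the 9 comparisons, with bars for the 95% counting interval and a black line at the median of all genes compared. The 9 genes stand between 2.14 and 2.89 for galactose against 2% glucose and spread from -0.91 to 1.02 for PPZ1 against control cells in 0.25% glucose.

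The other genes of the pathway were described from fixed lists, by the same 2-fold limit for galactose against 2% glucose and with no test of a list. Upstream of complex III, 7 of 7 genes of succinate dehydrogenase and the NADH dehydrogenases were at least 2-fold higher in each strain, with a median log2 change of 3.32 in control cells and 2.997 in PPZ1 cells. Their largest changes were those of *NDE2*, an external NADH dehydrogenase, at 4.64 and 4.06. Downstream, 9 of 9 nuclear genes of cytochrome c oxidase were past 2-fold in each strain, with medians of 2.04 and 1.99. For ATP synthase the counts were 13 and 12 of 14, with medians of 1.61 and 1.62. The members' medians of 2.67 and 2.43 lie between those of the dehydrogenases and of the oxidase.

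The electron acceptor of the complex did not follow as 1 group. *CYC7*, the minor isoform of cytochrome c, was higher in galactose by 4.82 ± 0.14 in control cells and 4.48 ± 0.15 in PPZ1 cells. *CYC1*, the major isoform, went from 732 CPM in 2% glucose to 388 CPM in galactose in control cells, a log2 change of -0.92 ± 0.04, and by -1.26 ± 0.05 in PPZ1 cells. The *CYC1* reads therefore moved opposite to those of all 9 subunits. In PPZ1 cells *PPZ1* was also lower in galactose, by a log2 change of -2.21, and in control cells it stood at -0.07. Whether plasmid transcripts add to the *CYC1* reads was not tested.

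Genes for building the complex changed less than its subunits. Of all genes, 23.0% were at least 2-fold higher in control cells and 19.8% in PPZ1 cells. At least 2-fold lower were 19.7% and 21.1%. The counts below were not tested against these shares. Of 11 assembly and cytochrome b expression factors, 3 were at least 2-fold higher in control cells and 2 in PPZ1 cells, and the list medians were 0.17 and 0.15. *CBP4*, an assembly factor that binds new cytochrome b, was highest at 2.02 and 1.71, followed by *CBP6*, of the Cbp3-Cbp6 pair at the mitochondrial ribosome, at 1.22 and 1.12. *BCS1*, which inserts the Rieske protein, stood at 0.17 ± 0.15 and 0.15 ± 0.15. Of 10 genes of ubiquinone synthesis, 3 were at least 2-fold higher in each strain, led by *COQ4* at 2.01 and 1.90, and 2 were at least 2-fold lower in PPZ1 cells (lowest -1.04); the list medians were 0.33 and 0.19. Of 8 genes of heme synthesis, 1 and 2 were past it (medians of 0.21 and 0.18), led by *HEM15*, the ferrochelatase, at 1.26 and 1.20.

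Of the 5 *HAP* activator genes, *HAP4* and *HAP2* were past 2-fold in both strains. *HAP4*, the regulated activation subunit, went from 55.3 to 808 CPM in control cells (3.84 ± 0.08) and from 49.4 to 662 CPM in PPZ1 cells (3.72 ± 0.09). *HAP2* stood at 1.95 and 1.60. Of the mitochondrial processing peptidase subunits, relatives of the core proteins, neither passed 2-fold. *MAS1* stood at 0.89 in control cells and 0.77 in PPZ1 cells, and *MAS2* at -0.04 and -0.22.

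Low glucose against high glucose asks what a drop in sugar does within 1 h. In control cells every member was higher in 0.25% glucose, and the redox and core subunits had the largest changes. These were *CYT1* at 0.88 ± 0.07, *QCR2* at 0.82 ± 0.06, *COR1* at 0.75 ± 0.05 and *RIP1* at 0.71 ± 0.09, and they are the 4 members past 1.5-fold, against 3.78% of 5241 genes (0.42% were lower). With TMM or upper-quartile scaling *RIP1* fell short of the limit, and the upper-quartile split of all genes was 1.87% higher and 0.935% lower. The 5 small subunits lay lower, from 0.19 ± 0.07 (*QCR8*) to 0.47 ± 0.09 (*QCR9*). No member was 2-fold higher, a limit that 0.897% of all genes passed. The median of the members was 0.47 and that of all genes 0.13.

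PPZ1 cells gave another order. *QCR6* was higher in 0.25% glucose by 1.30 ± 0.07, *QCR7* by 0.97 ± 0.07 and *QCR8* by 0.80 ± 0.10, and these 3 were the members past 1.5-fold, against 8.48% of 5213 genes (17.5% were lower; 12.2% and 13.2% with upper-quartile scaling). *QCR6* alone passed 2-fold, as did 1.67% of all genes; *QCR7* joined it under 3 other scalings, and neither passed once the length trend was removed, which also took *QCR8* (0.40) below 1.5-fold. The 4 genes that led in control cells stood at 0.22 ± 0.11 (*CYT1*), 0.16 ± 0.08 (*COR1*), 0.02 ± 0.13 (*RIP1*) and -0.09 ± 0.10 (*QCR2*). *QCR10* stood at 0.26 ± 0.15 and *QCR9* at -0.20 ± 0.16. The median of all genes was -0.09.

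Of all genes, 3.78% were past 1.5-fold in control cells and 8.48% in PPZ1 cells. How many passed in both strains was not counted, so no overlap or lack of it is read from the members. The calls also change with the scaling and length settings given above. The log2 change of PPZ1 cells minus that of control cells was 0.83 ± 0.09 for *QCR6*, 0.65 ± 0.09 for *QCR7* and 0.60 ± 0.12 for *QCR8*. It was -0.90 ± 0.11 for *QCR2*, -0.69 ± 0.16 for *RIP1*, -0.67 ± 0.19 for *QCR9*, -0.66 ± 0.13 for *CYT1*, -0.58 ± 0.09 for *COR1* and -0.17 ± 0.18 for *QCR10*. The median of this difference over all genes was -0.25. With 1 library per condition the difference between strains has no replicate check, and it was not tested.

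In the additive fit, which gives both strains a single response, none of the 9 members passed for 0.25% against 2% glucose, with edgeR adjusted p from 0.556 to 0.880. At an unadjusted p under 0.05 the edgeR fit held 4 of the 9 members, beside 347 of all 5382 genes in either direction. DESeq2 called none of the members. At an FDR of 0.05 edgeR called 0.334% of all genes higher. With a low-glucose library left out, the 0.25% arm is a single library, which the fit assumes to vary like the other media, and 1 residual degree of freedom is left. Without PPZ1 cells in 0.25% glucose this fit listed *COR1*, *RIP1*, *CYT1* and *QCR2* as higher, and 3.96% of all genes. Without control cells in 0.25% glucose it listed *QCR6*, *QCR7*, *QCR8* and *QCR10*, and 16.6% of all genes. These lists describe 1 strain each and are not a test of it across cultures.

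Coding length moved with the low-glucose changes of all genes in PPZ1 cells, whose 0.25% library is the shallowest. The running median of all genes ranked by length stood in PPZ1 cells at 0.40 at the length of *QCR8* (285 bases), 0.38 at *QCR7* (384), 0.37 at *QCR6* (444), 0.26 at *RIP1* (648) and -0.15 at *COR1* (1374). In control cells it stood at 0.00 for *QCR8* and 0.14 for *COR1*. After this trend was subtracted, the changes of PPZ1 cells were 0.93 for *QCR6*, 0.59 for *QCR7*, 0.40 for *QCR8*, -0.13 for *QCR10* and -0.58 for *QCR9*. For the longer genes they were 0.31 (*COR1*), 0.13 (*CYT1*), -0.04 (*QCR2*) and -0.24 (*RIP1*). *QCR9*, with a coding span of 414 bases, lies between *QCR7* and *QCR6* in length and far below both in change. Its spliced coding length, 201 bases, is the shortest of the 9. A list of 15 short cytosolic ribosomal protein genes had a median of -0.42 in control cells and 0.11 in PPZ1 cells. With the trend of the difference between strains subtracted in the same way, PPZ1 minus control was 0.51 for *QCR6*, 0.30 for *QCR7* and 0.19 for *QCR8*. It was -0.26 for *COR1*, -0.56 for *QCR10*, -0.61 for *CYT1*, -0.73 for *QCR2*, -0.87 for *RIP1* and -1.02 for *QCR9*. Each member kept its sign, and the values of *QCR6*, *QCR7*, *QCR8*, *COR1*, *QCR9* and *QCR10* moved by over 1.5 times. The part of length in the members' changes was not tested beyond this subtraction.

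**Figure D4:**
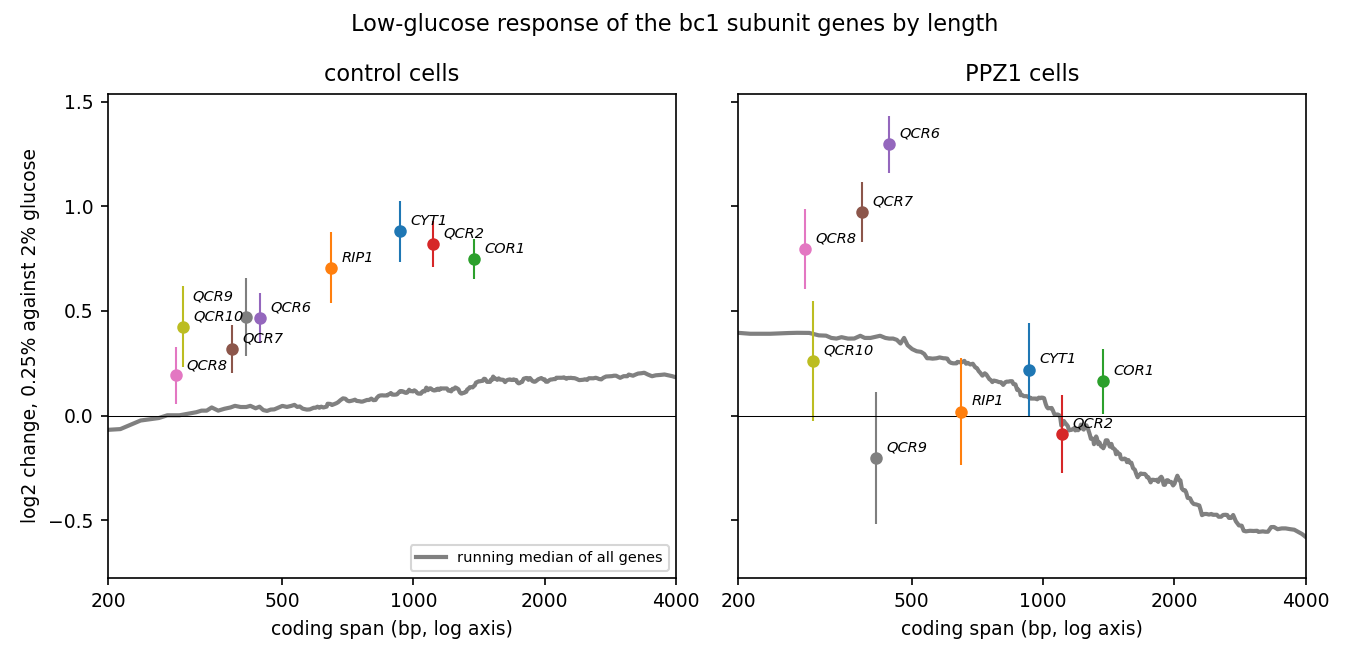
log2 change for 0.25% against 2% glucose of each bc1 subunit gene by its coding span (bp, log axis), in control cells (left) and PPZ1 cells (right), with bars for the 95% counting interval and a grey running median of all genes. In control cells the longer genes lead, with *CYT1* at 0.88. In PPZ1 cells *QCR6* (1.30), *QCR7*, *QCR8*, *COR1* and *CYT1* stand above the grey line. *QCR9* (-0.20), *QCR10*, *RIP1* and *QCR2* are below it.

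The related lists gave these values for the same comparison. Of all genes, 3.78% were at least 1.5-fold higher and 0.42% lower in control cells, and 8.48% and 17.5% in PPZ1 cells. The length trend was not subtracted here, and in PPZ1 cells its running median reached -0.60 at 4509 bases. *HAP4* was higher in 0.25% glucose by 1.497 ± 0.09 in control cells and by 0.75 ± 0.14 in PPZ1 cells. *CYC1* was higher by 0.87 ± 0.03 and by 1.48 ± 0.03, so the strains stand for *CYC1* in the order seen for *QCR6* and not in that of *CYT1*. Here too, a share of plasmid transcripts in the *CYC1* reads was not tested. Of 9 cytochrome c oxidase genes none was past 1.5-fold in control cells and 2 were in PPZ1 cells, *COX12* (0.84 ± 0.11) and *COX13* (0.68 ± 0.10). Among succinate dehydrogenase and NADH dehydrogenase genes above the minimum level, 5 of 6 were past 1.5-fold in control cells and 1 of 6 in PPZ1 cells. *NDI1*, the internal NADH dehydrogenase, stood at 1.10 ± 0.09 and -0.06 ± 0.15. Of 11 assembly factors, 0 and 6 were at least 1.5-fold higher, and 1 was lower by that limit in PPZ1 cells, *CBP2*, a splicing factor of the cytochrome b transcript, at -1.19 ± 0.30. *HAP1* stood at 0.27 ± 0.05 in control cells and -0.76 ± 0.10 in PPZ1 cells.

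PPZ1 against control cells in a single medium uses the same libraries as the comparisons above. In 2% glucose no member was 1.5-fold higher or lower, with log2 changes from -0.26 ± 0.08 (*QCR8*) to 0.28 ± 0.10 (*RIP1*); of all genes, 0.595% were higher and 0.365% lower by that limit. In galactose none passed either, with values from -0.39 ± 0.03 (*QCR7*) to 0.09 ± 0.05 (*CYT1*); the background was 0.206% higher and 2.15% lower. The 4 lowest in galactose were *QCR7*, *QCR10* (-0.37), *QCR9* (-0.29) and *QCR8* (-0.24), all small subunits, whereas *QCR6* stood at -0.02. The median of all genes in galactose was -0.13; with TMM scaling it was 0.01, the all-gene split was 1.03% higher and 0.655% lower, and *QCR6* stood at 0.12.

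In 0.25% glucose the members parted in both directions. *QCR6* stood at 435 CPM (95% interval 406 to 466) in PPZ1 cells against 215 (204 to 226) in control cells, a log2 change of 1.02 ± 0.06, and *QCR7* at 0.60 ± 0.07. These 2 of 9 were at least 1.5-fold higher, against 4.88% of all genes. *QCR2*, at 163 CPM (146 to 183) against 308 (295 to 322), was lower by a log2 change of -0.91 ± 0.09, with *QCR9* at -0.69 ± 0.15 and *COR1* at -0.59 ± 0.07. These 3 of 9 were at least 1.5-fold lower, a share near the 28.8% of all genes that were, and the median of all genes was -0.24. Of all genes, 28.7% stood lower than *COR1*, 22.8% lower than *QCR9* and 13.0% lower than *QCR2*. With upper-quartile scaling, which gave 16.4% higher and 14.3% lower over all genes, only *QCR2* was 1.5-fold lower and *QCR8* joined the higher ones; with the length trend removed *QCR6* alone was 1.5-fold higher, *COR1* (-0.29) was no longer 1.5-fold lower and *RIP1* (-0.63) was. The additive fit, which averages over media, called no member for PPZ1 against control cells, with edgeR adjusted p from 0.727 to 0.978. At an unadjusted p under 0.05 the edgeR fit held 1 of 9, *QCR6*, beside 227 of all 5382 genes in either direction. DESeq2 called none of the members.

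The mean profile of the 9 members over the 6 libraries was also set against single genes, as the root mean square difference of centred log2 levels. Among the members, *COR1* (0.13) and *QCR10* (0.13) were nearest to the mean profile and *QCR6* (0.38) the farthest. Of the 3358 other genes that averaged 50 CPM or more, the nearest 5 were *UBX3* (0.05), YGR182C (0.06), *RAD4* (0.07), YGR130C (0.07) and *SRY1* (0.09). None of the 5 is on the lists of respiratory genes; the nearest of those was *COX5A*, a subunit of cytochrome c oxidase, at rank 10. YGR182C, at 49.4, 71.2 and 323 CPM in control cells and 47.0, 61.6 and 266 CPM in PPZ1 cells, lies on chromosome VII beside *QCR9*. Its feature (chrVII:858501-858954, minus strand, file coordinates) follows that of *QCR9* on the same strand after a gap of 58 bases. This likeness describes 6 libraries and is given without a test.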

How the data were processed

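mRNA-Seq libraries of 6 conditions (2 plasmids in 3 media, 1 library each) were grouped by plasmid and medium as labelled. Per the deposited notes, the authors aligned reads with Bowtie2 (version not stated) and counted them in SeqMonk 0.32.1 over coding sequences with 50 bp on each side, on the opposite strand and without duplicate reads. For control cells in 0.25% glucose the deposited values are whole read counts. The remaining 5 columns hold a deposited signal, in which the authors multiplied read counts by a factor per library (1.19, 1.83, 1.37, 3.57 and 1.69 for control cells in 2% glucose and galactose and PPZ1 cells in 2% glucose, 0.25% glucose and galactose). Dividing by that factor returned whole numbers (tolerance 0.01) in 100% of cells of the table. No source used here names the build; 5954 features carry a name of the R64 annotation, and 5945 of them match its coordinates once the 50 bp flanks are taken off, all 9 members included.

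CPM kept the authors' scaling. Genes averaging 10 CPM or more over the libraries compared entered the background counts. Read counts were fitted with edgeR 4.0.16 (TMM factors, quasi-likelihood, FDR of 0.05) and DESeq2 1.42.0 in R 4.3.3, as terms for plasmid plus medium. In counts simulated for galactose against 2% glucose over 5382 genes, the edgeR fit recovered 86 of 100 genes changed 2-fold and 100 of 100 changed 4-fold, with 6 unchanged genes called. The simulated counts had a dispersion of at most 0.05 and the same response for both plasmids. They therefore cannot show how the fit behaves where the plasmids respond differently. The Python steps used numpy 2.4.6, pandas 2.3.3 and scipy 1.17.1. Sequences come from the RefSeq R64 assembly, and motifs were chosen from regulators named in the file's descriptions of the members.

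Other lists gave the 2 genes of largest change plus *HAP4*, *CYC1*, *CYC7* and *COB*; the 5 genes of nearest profile were also named. *MAS1*, *MAS2*, *BCS1*, *COX5A* and the ratios of *QCR6* to *QCR9* were named after their values were seen. The members and lists were chosen with earlier results of these data known. Alternatives were median-of-ratios, TMM and upper-quartile scaling, pseudocounts of 5 CPM and none, removal of the length trend, other minimum levels, and each library left out in the additive fit.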

Additional observations from a re-analysis of the deposited data

Results flagged for a closer look

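A pair of members had a low-glucose change of opposite sign in the 2 strains. *QCR2* stood at 0.82 in control cells and -0.085 in PPZ1 cells, and *QCR9* at 0.47 and -0.20, as log2 changes of 0.25% against 2% glucose. Each value rests on 1 library per condition. In PPZ1 cells the 95% counting interval of neither gene settles its sign (standard errors of 0.10 and 0.16). With upper-quartile scaling *QCR2* stood at 0.02 in PPZ1 cells. The difference between the strains was not tested.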

How the results depend on the processing

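The 9 of 9 counts for galactose held under every scaling, pseudocount and length setting tried, except 7 of 9 against 0.25% glucose in PPZ1 cells with upper-quartile scaling, and they held in every additive fit (both scalings, no minimum, DESeq2, each library left out). Counts in low glucose did not. For 0.25% against 2% glucose in PPZ1 cells, the members at least 2-fold higher went from 1 to 2 (*QCR6* and *QCR7*) with median-of-ratios, TMM and upper-quartile scaling, and to 0 with the length trend removed, which took those at least 1.5-fold higher from 3 to 2. For PPZ1 against control cells in 0.25% glucose, those at least 1.5-fold lower went from 3 to 1 (*QCR2*) under the 3 scalings, and with the length trend removed those at least 2-fold higher went from 1 to 0 and those at least 1.5-fold higher from 2 to 1 (*QCR6*), while *RIP1* took the place of *COR1* among the 3 lower ones. These scalings moved the median of all genes in that comparison from -0.24 to 0.01, -0.04 and 0.05. Members called higher for 0.25% against 2% glucose by the additive fit ranged from 0 to 4 with a library left out, 4 being reached without control (16.6% of all genes called) or PPZ1 cells (3.96%) in 0.25% glucose. No called member changed sign. Without PPZ1 cells in 0.25% glucose, 3 of the 5 nearest genes were shared, and on spliced lengths 5 of 9 members kept their rank. No paired analysis was possible because each condition has 1 library and the labels carry no replicate numbers. Depth limits *QCR9* most, with the widest interval in PPZ1 cells in 0.25% glucose.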
